A study of Mus musculus with 12 samples.

Results

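Fkbp5, Cdkn1a, Bcl6 and Cebpb were followed as 4 genes known to respond to glucocorticoids and to cell stress. They were taken by gene name from the 545 endogenous genes of a NanoString immune panel, and all 4 were measured above background in all 12 samples. The samples were microglia, the resident macrophages of the brain, isolated by Percoll gradient and cell sorting from hippocampi of BALB/c males aged 28 days. Of these, 6 came from pups given brief daily separation (BDS), a separation from the dam lasting 15 min on each of postnatal days 1 to 21, and 6 from control pups, for which the labels name no other treatment. No genetic change or drug is named for either group, and the 12 pups came from different litters. The comparison asks whether these genes differ in microglia after an early-life stress. Samples are named by group and number, as in BDS 21 or control 44.

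Glucocorticoids are the adrenal hormones of the stress response. They enter cells and bind the glucocorticoid receptor, which is held ready by a chaperone complex, moves to the nucleus and acts on DNA both directly and by restraining inflammatory transcription factors. Microglia carry this receptor. Fkbp5 encodes FKBP51, a co-chaperone that the receptor induces and that lowers the receptor's hormone affinity in return. Cdkn1a encodes p21, an inhibitor of cyclin-dependent kinases and a classic target of p53 in stressed cells. Bcl6 encodes a zinc-finger repressor that restrains inflammatory genes in macrophages. Cebpb encodes the transcription factor C/EBP beta, which is induced by inflammatory and hormonal signals in myeloid cells.

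The promoter windows of the 4 genes are shown because they are the regulatory sequence nearest to each start site, in which response elements can be read. RefSeq windows of GRCm38.p6, running from 250 bases before a start site to 50 after it, were found for all 4 genes, with 6 windows in all. The 5 windows other than that of the second Cdkn1a start are printed 5′ to 3′ on the strand of the gene, in lower case, with motif matches in capitals.

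Fkbp5 (chr17:28486100-28486399, minus strand): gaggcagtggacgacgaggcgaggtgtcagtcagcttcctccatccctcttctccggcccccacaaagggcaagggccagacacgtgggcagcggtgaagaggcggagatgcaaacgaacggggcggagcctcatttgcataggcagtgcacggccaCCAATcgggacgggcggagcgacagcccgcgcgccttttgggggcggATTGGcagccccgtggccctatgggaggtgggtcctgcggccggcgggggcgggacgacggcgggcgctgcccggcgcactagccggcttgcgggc
Cdkn1a, upstream start (chr17:29090729-29091028, plus strand): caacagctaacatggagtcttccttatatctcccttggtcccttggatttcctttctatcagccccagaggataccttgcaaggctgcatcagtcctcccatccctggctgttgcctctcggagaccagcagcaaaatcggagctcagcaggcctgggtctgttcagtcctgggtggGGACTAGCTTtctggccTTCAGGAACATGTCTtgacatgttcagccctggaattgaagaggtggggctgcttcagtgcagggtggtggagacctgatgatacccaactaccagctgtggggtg
Bcl6, upstream start (chr16:23988803-23989102, minus strand): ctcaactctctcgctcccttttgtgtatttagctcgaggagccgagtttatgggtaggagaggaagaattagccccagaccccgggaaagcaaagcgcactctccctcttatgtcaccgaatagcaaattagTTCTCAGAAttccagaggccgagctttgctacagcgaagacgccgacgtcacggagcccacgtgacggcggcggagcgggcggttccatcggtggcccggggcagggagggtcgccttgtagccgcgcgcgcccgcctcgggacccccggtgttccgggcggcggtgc
Bcl6, downstream start (chr16:23981234-23981533, minus strand): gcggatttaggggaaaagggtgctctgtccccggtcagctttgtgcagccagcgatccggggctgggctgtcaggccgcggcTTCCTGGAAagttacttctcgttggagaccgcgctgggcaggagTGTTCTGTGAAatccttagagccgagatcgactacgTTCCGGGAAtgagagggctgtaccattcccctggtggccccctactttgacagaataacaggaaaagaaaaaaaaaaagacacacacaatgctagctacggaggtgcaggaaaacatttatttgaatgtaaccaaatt
Cebpb (chr2:167688665-167688964, plus strand): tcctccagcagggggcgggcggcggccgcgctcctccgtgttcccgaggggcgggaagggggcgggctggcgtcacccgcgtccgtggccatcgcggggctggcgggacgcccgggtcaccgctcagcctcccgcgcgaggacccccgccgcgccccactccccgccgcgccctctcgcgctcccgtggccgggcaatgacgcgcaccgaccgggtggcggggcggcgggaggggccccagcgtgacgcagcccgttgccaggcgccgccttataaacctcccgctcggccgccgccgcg

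Both strands were searched for 6 motifs. The full glucocorticoid response element, AGAACA followed by any 3 bases and TGTTCT, had no match in the 6 windows and was found in 3 of 32851 windows of the genome table. Its single hexamer AGAACA was found in 19.0% of all windows and here only in the downstream Bcl6 window, as TGTTCT on the printed strand. The Bcl6-type motif TTCNNNGAA, found in 8.3% of all windows, had 3 matches in that same window, 1 of them overlapping TGTTCT, and 1 match in the upstream Bcl6 window. In the upstream Cdkn1a window the p53 decamer motif, found in 8.36% of all windows, had 2 matches, GGACTAGCTT and GAACATGTCT. The C/EBP motif TTNNGNAA, found in 40.7% of all windows, had 1 match there, TTCAGGAA, which overlaps GAACATGTCT. Fkbp5 had 2 matches to the CCAAT box, found in 37.4% of all windows. The Cebpb window and the second Cdkn1a window had none of the 6 motifs. A match is a match of letters only, and glucocorticoid receptor sites often lie far outside such windows.

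Barcode counts, which number the labelled probes bound to each transcript, totalled 641756 to 1171355 in BDS samples and 893936 to 1409376 in control samples. Values called normalized counts are these counts after scaling each sample by 6 housekeeping genes. Probe counts differ in efficiency between genes, so levels were compared between samples and not between genes. Housekeeping factors were lowest in BDS 21 (0.609), BDS 25 (0.649) and BDS 55 (0.854), where Rpl19 counts were also 0.79, 0.61 and 0.47 times those of Polr2a. In the remaining 9 samples this ratio ran between 0.11 and 0.27. The 10 microglial markers on the panel were above background in all 12 samples, with summed normalized counts of 222064 to 288808 in BDS and 233474 to 249901 in controls. BDS 21, BDS 25 and BDS 55 lay above every control, at 288808, 268767 and 257130. BDS 7, BDS 35 and BDS 43 had 234283, 223998 and 222064. Of 12 T cell markers 6 were present, among them Il7r, Cd27 and Cd5 in 12 of 12 samples and Lck in 11. Il7r and Cd27 had mean normalized counts of 4682 and 381 in BDS and 5102 and 377 in controls. Cd3d, Cd3e, Cd28 and Zap70 were above background in 0 of 12 samples, as were the B cell markers Pax5, Cd22 and Cr2. Of 7 B cell markers on the panel 2 were present, Cd79b in 12 of 12 samples and Cd79a in 6 of 12. Of the NK cell markers, 3 of 5 were present. Both endothelial markers on the panel, Pecam1 and Cdh5, were above background in 12 of 12 samples. Of the astrocyte, neuron and oligodendrocyte markers, Mbp was above background in 12 of 12 samples and Icam5 in 6. Mean normalized counts of Mbp were 129 in BDS and 138 in controls. Of 6 neutrophil markers on the panel 3 were present, Csf3r in 12 of 12 samples, S100a8 in 6 and Ltf in 5. Cxcr2 and Camp were above background in 0 of 12. Of 4 markers of blood monocytes and border macrophages 2 were present, with Ccr2 above background in 12 of 12 samples. In this bulk material fewer expressing cells and less RNA per cell cannot be told apart.

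Across the panel, 0 of 357 tested genes (0%) passed an adjusted p of 0.05 in edgeR's quasi-likelihood test, as with DESeq2 and limma, and 44 (12.3%) had an unadjusted p under 0.05. Of these 44, 41 (11.5%) were lower in BDS and 3 (0.84%) higher, while with TMM 14 were lower and 18 higher. None of Fkbp5, Cdkn1a, Bcl6 and Cebpb was among the 44. The groups did not overlap for 4 of 357 genes (1.12%), and they overlapped for each of these 4 stress-responsive genes. The median log2 fold change of all tested genes was -0.10 with housekeeping scaling and -0.01 with TMM, a scaling taken over all tested genes.

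Fkbp5, the co-chaperone of the glucocorticoid receptor, was slightly higher on average in BDS, by less than the test could call. It had a lowest, median and highest normalized count of 1808, 2082 and 2402 in BDS samples, against 1709, 1978 and 2133 in control samples. BDS 21, BDS 35 and BDS 43 lay above every control, and the other 3 BDS samples lay within the control range. The means were 2110 ± 245 in BDS and 1951 ± 144 in controls (SD, n = 6 each). The log2 fold change was 0.11 ± 0.09 (SE), with a 95% interval of -0.08 to 0.31 and an edgeR adjusted p of 0.56. The interval runs from 0.946-fold to 1.24-fold. Before scaling, mean counts were 1938 in BDS and 2227 in controls, so the sign of the difference comes with the scaling. The sign was positive under every alternative tried, at 0.07 to 0.22. With TMM it was 0.21 ± 0.10 (SE), at an edgeR unadjusted p of 0.047 and an adjusted p of 0.52.

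Cdkn1a, the p21 gene, had the widest spread of the 4, and 1 control library set its direction. Normalized counts were 825, 1315 and 1633 at the lowest, median and highest of the BDS samples, against 851, 959 and 2984 in control samples. The highest value belonged to control 44, at 2.75 times the mean of the other 5 controls, and control 13 followed with 1727. The other 4 controls lay between 851 and 980. Of the BDS samples, BDS 35 lay in that range at 957, BDS 7 lay below it at 825, and 4 lay above it. The means were 1247 ± 303 in BDS and 1402 ± 840 in controls (SD, n = 6 each), with a 95% interval of -0.80 to 0.46 around the log2 fold change of -0.17 ± 0.29 (SE; adjusted p = 0.78, edgeR). Without control 44 the control mean was 1086 ± 362 (SD, n = 5) and the log2 fold change turned to 0.20 ± 0.20 (SE; edgeR adjusted p = 0.71).

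Bcl6, the repressor of inflammatory genes, was low in 3 BDS samples and at control level in the other 3. The lowest, median and highest normalized counts were 545, 828 and 1042 in BDS, against 807, 913 and 1050 in controls. The samples below every control were BDS 21, BDS 25 and BDS 55, at 545, 629 and 734. The same samples had the smallest housekeeping factors and the highest Rpl19 to Polr2a ratios. The ratio entered an alternative fit, given below, in which only the group difference was tested and not the ratio itself. In BDS 21, Bcl6 lay 0.74 below the control mean on the log2 scale, the 12th lowest such difference of 357 genes, while the median gene lay 0.02 below. It stood out less in the other samples. In BDS 25 it lay 0.54 below, at rank 54 from the lowest, with the median gene 0.12 below. In BDS 55 it lay 0.31 below, at rank 105, with the median gene 0.09 below. BDS 7, BDS 35 and BDS 43 had 922, 929 and 1042. The means were 800 ± 194 in BDS and 915 ± 82 in controls (SD, n = 6 each), and the log2 fold change was -0.19 ± 0.14 (SE; edgeR adjusted p = 0.54; 95% interval -0.50 to 0.12). Without those 3 samples it turned to 0.08 ± 0.10 (SE; edgeR adjusted p = 0.96), and with the Rpl19 to Polr2a ratio as a covariate to 0.06 ± 0.12 (SE).

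Cebpb, the least counted of the 4, had 146, 279 and 323 normalized counts at the lowest, median and highest of the BDS samples, against 168, 249 and 279 in controls. BDS 21, BDS 43 and BDS 55 lay above every control, at 301, 283 and 323, and BDS 35 lay below every control at 146. The BDS values thus reached past the controls on both sides. The means were 256 ± 66 in BDS and 234 ± 42 in controls (SD, n = 6 each), with a log2 fold change of 0.13 ± 0.18 (SE; edgeR adjusted p = 0.73; 95% interval -0.27 to 0.52). Without BDS 21, BDS 25 and BDS 55 it turned to -0.14 ± 0.22 (SE; edgeR adjusted p = 0.96). Raw counts of Cebpb averaged 230 in BDS and 270 in controls, so the sign of the difference comes with the scaling. Before scaling, BDS 21, BDS 43 and BDS 55 had 183, 364 and 276 counts, within the control range of 174 to 375. The lowest raw count, 149, lay well above the background limits of 15.3 to 21.8 counts.

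**Figure D1:**
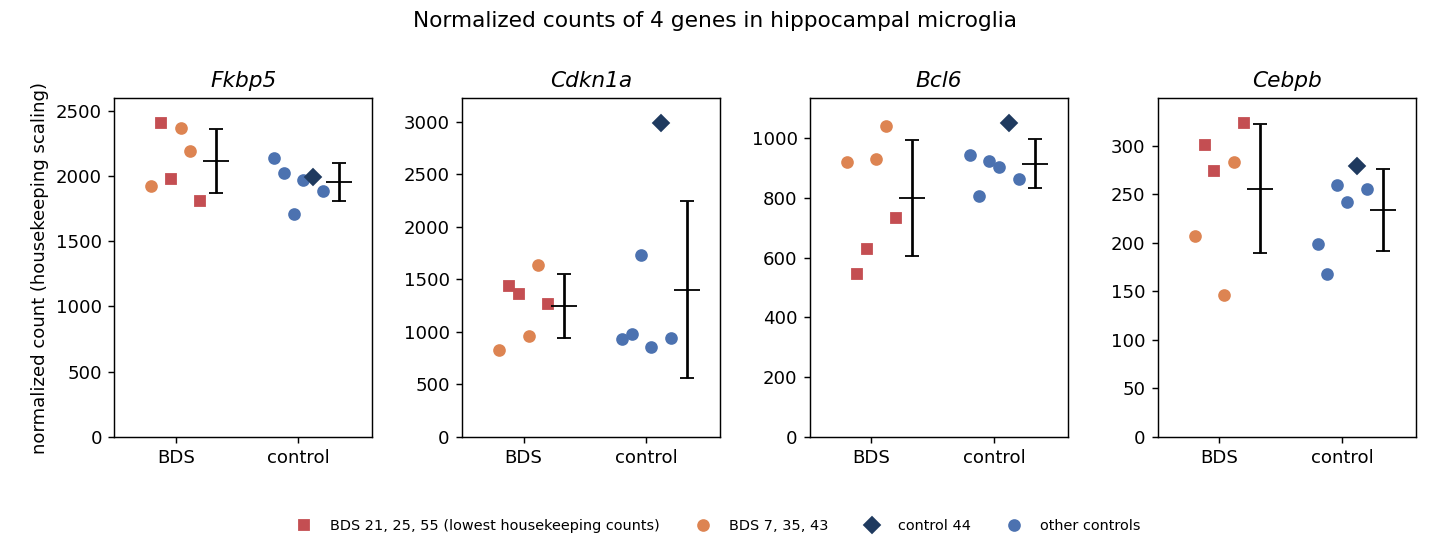
Normalized counts (vertical axis, from 0) of Fkbp5, Cdkn1a, Bcl6 and Cebpb in each of 6 BDS and 6 control samples, with the mean and SD of each group in black. BDS 21, BDS 25 and BDS 55 (squares) lie below every control for Bcl6, and control 44 (diamond) stands at 2984 for Cdkn1a.

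**Figure D2:**
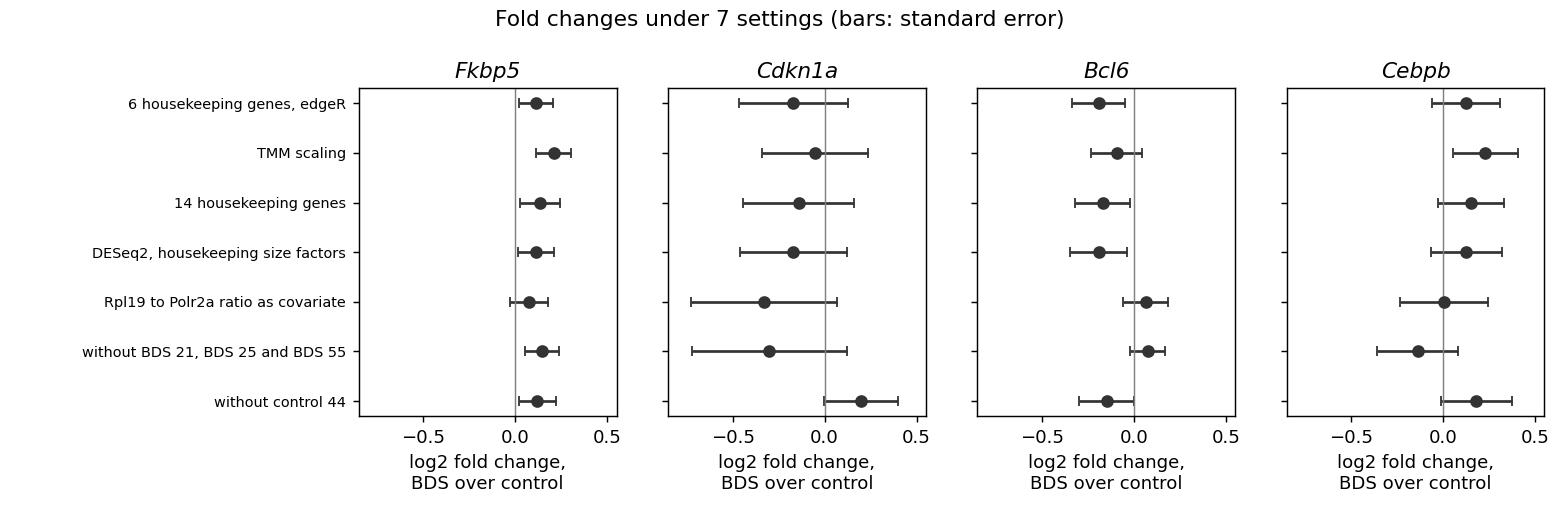
Log2 fold change of BDS over control with its standard error (horizontal axis) for each gene under 7 settings. Fkbp5 stays above 0 in all 7, while Bcl6 and Cebpb change sign without BDS 21, BDS 25 and BDS 55, Bcl6 also with the Rpl19 to Polr2a covariate, and Cdkn1a without control 44.

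The 4 genes differed in how much they varied among samples of the same group. Ranked by the SD of log2 values within groups, largest first, Cdkn1a was at rank 27 of 357, Cebpb at 100, Bcl6 at 172 and Fkbp5 at 321. Coefficients of variation in BDS and control samples were 11.6% and 7.38% for Fkbp5, 24.3% and 59.9% for Cdkn1a, 24.3% and 8.95% for Bcl6, and 26.0% and 17.9% for Cebpb. Counting error alone would give 2.19%, 2.73%, 3.31% and 6.32% at their mean counts. The log2 SD of Bcl6 was 0.37 in BDS and 0.13 in controls. A larger SD in BDS was common on the panel, in 245 of 357 genes, and the difference in spread was not tested.

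Ratios between the raw counts of 2 genes in the same sample do not depend on the scaling. The count ratio of Bcl6 to Cebpb was 1.81, 2.29 and 2.27 in BDS 21, BDS 25 and BDS 55 and 4.45, 6.36 and 3.68 in BDS 7, BDS 35 and BDS 43, against 3.39 to 4.80 in controls. Thus 3 BDS samples lay below every control and 1 above. On the log2 scale the ratio averaged 1.66 ± 0.69 in BDS and 1.99 ± 0.22 in controls (SD, n = 6 each). The ratio of Fkbp5 to Bcl6 averaged 1.43 ± 0.41 in BDS and 1.09 ± 0.16 in controls on that scale, with BDS 21, BDS 25 and BDS 35 above every control. The ratio of Cdkn1a to Cebpb averaged 2.30 ± 0.29 in BDS and 2.44 ± 0.60 in controls, and all 6 BDS samples lay within the control range.

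**Figure D3:**
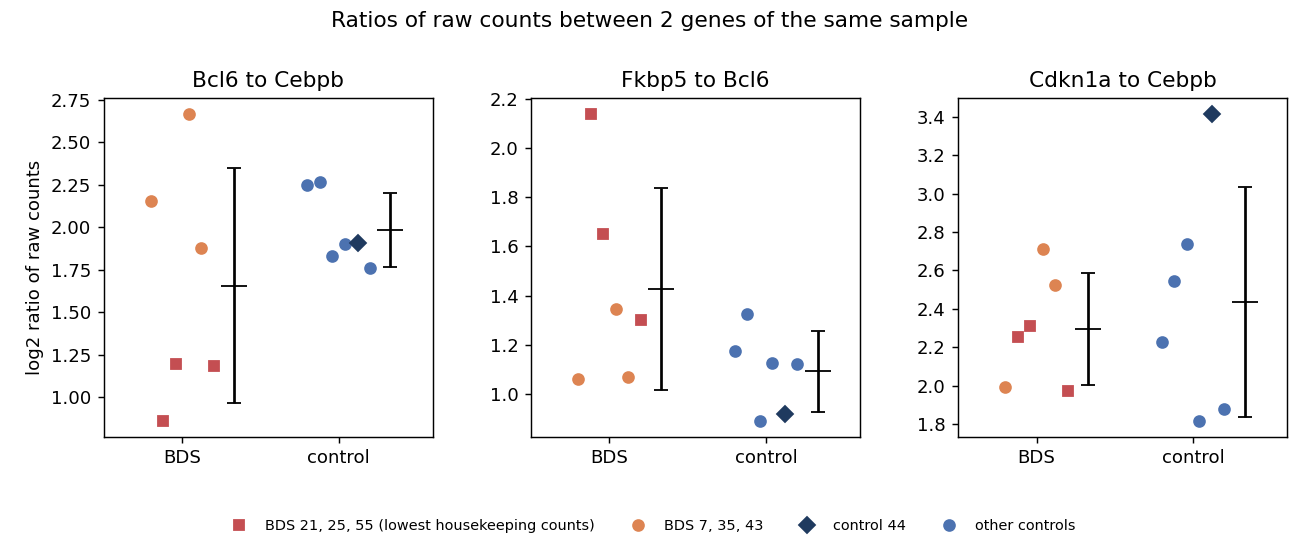
Log2 ratio of raw counts (vertical axis) for 3 pairs of genes in each BDS and control sample, with mean and SD in black. For Bcl6 to Cebpb, BDS 21, BDS 25 and BDS 55 (squares) sit below every control, at 0.86 to 1.20 against 1.76 to 2.26.

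Across the 12 samples, Pearson's r between the 4 genes ran from -0.32 to 0.56. Of the 6 pairs, the closest was Cdkn1a and Cebpb, with Pearson's r of 0.56 (permutation p = 0.060, adjusted over 6 pairs p = 0.36, two-sided) and Spearman's rho of 0.62 (permutation p = 0.035, adjusted p = 0.21). With control 44 and control 13, the samples farthest from the median of Cdkn1a, left out, r was 0.65, and on deviations from the group means it was 0.57. Within groups it was 0.75 in BDS and 0.58 in controls (n = 6 each). For Bcl6 and Cebpb, r was -0.32 (permutation p = 0.32, adjusted p = 0.63), and rho was -0.24 (permutation p = 0.45, adjusted p = 0.76). It was -0.50 within BDS and 0.66 within controls, and 0.52 over the 9 samples left without BDS 21, BDS 25 and BDS 55. For Cdkn1a and Bcl6, r was 0.08 (permutation p = 0.79, adjusted p = 0.80), with -0.33 within BDS and 0.75 within controls. Over the same 9 samples it was 0.69 (permutation p = 0.051, adjusted p = 0.23). With control 44 and control 13 left out of the 12 it was -0.44. No pair passed the adjusted threshold, over the 12 samples or over those 9.

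For each gene, the 3 tested genes with the highest Pearson's r of log2 normalized counts over the 12 samples were found. They share libraries and scaling with it, and r is a description. For Fkbp5 these were Tnfsf18, the GITR ligand, with an r of 0.82 and at most 41.1 normalized counts, close to background, then Tnfsf12, encoding TWEAK, with 0.79, and Il6ra, an interleukin-6 receptor chain, with 0.72. For Cdkn1a they were the chemokine Ccl4 with 0.89, Nfkbia, which encodes the NF-kB inhibitor, with 0.85, and the MHC class I gene H2-K1 with 0.84. Related class I genes could share the H2-K1 probe, which was not tested. Ccl4 had 338 to 887 normalized counts in BDS samples, against 316 to 981 in 5 controls and 4102 in control 44. Nfkbia had 1842 to 5406 in BDS samples, against 2193 to 3477 in 5 controls and 11954 in control 44. Without control 44 the 3 values of r became 0.73, 0.64 and 0.59.

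For Bcl6 the closest were Ctsc, which encodes cathepsin C, with an r of 0.87, the transcription factor Tcf4 with 0.86 and the cytokine-receptor kinase Jak2 with 0.86. Without BDS 21, BDS 25 and BDS 55 these became 0.03, 0.29 and 0.86, so of the 3 only Jak2 kept a profile close to Bcl6 in the other 9 samples. Jak2 had 2762 to 4096 normalized counts in BDS and 3399 to 4081 in controls. For Cebpb they were the kinase gene Btk with 0.82, the myeloid transcription factor Irf8 with 0.78 and the cell-death gene Bax with 0.76. Without those 3 samples these were 0.74, 0.76 and 0.64.

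**Figure D4:**
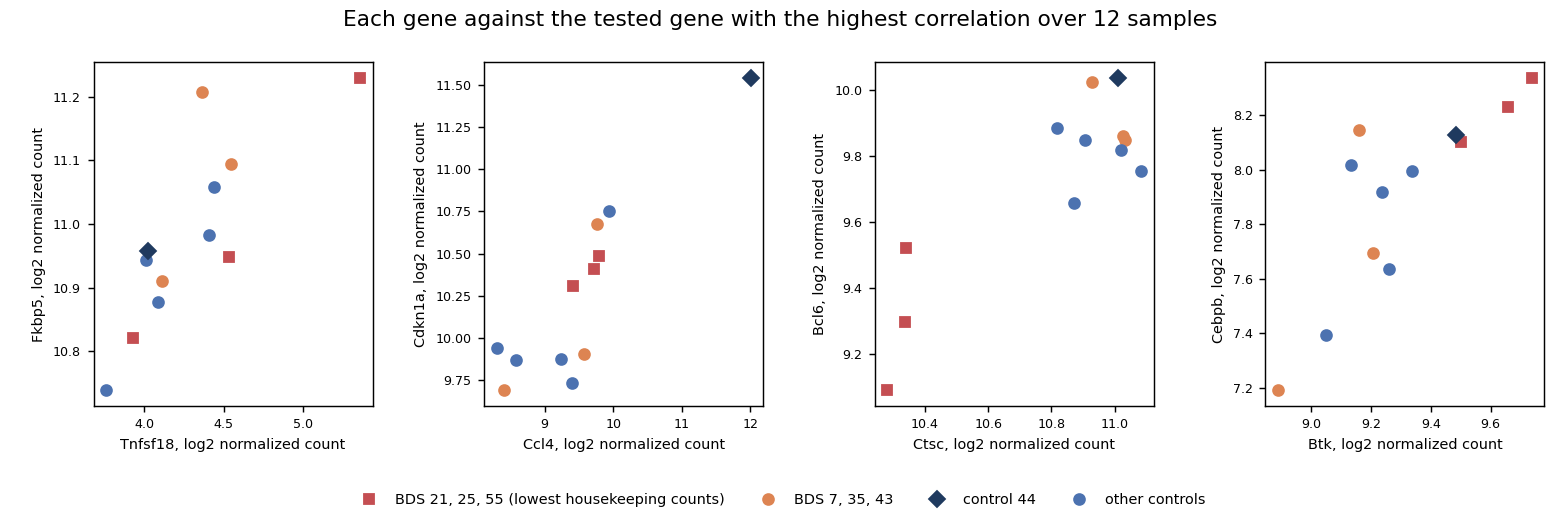
Log2 normalized counts of Fkbp5, Cdkn1a, Bcl6 and Cebpb (vertical axes) against those of Tnfsf18, Ccl4, Ctsc and Btk (horizontal axes), 1 point per sample. Control 44 (diamond) stands apart for Cdkn1a and Ccl4, and BDS 21, BDS 25 and BDS 55 (squares) form a low group for Bcl6 and Ctsc.

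Other genes of the same pathways were read from lists chosen by their known roles. Of 19 genes of the receptor and its chaperones, 0 were among the genes analysed here, so the receptor itself was not analysed. Of 20 further genes that glucocorticoids induce, 7 were on the panel and 5 were present, 3 with log2 fold changes below 0 and 2 above, with a median of -0.12 beside -0.10 over all tested genes. Tnfaip3, a brake on NF-kB, had 736 ± 179 normalized counts in BDS and 961 ± 211 in controls (SD, n = 6 each), at -0.38 ± 0.17 on the log2 scale (SE; edgeR unadjusted p = 0.042, adjusted p = 0.38). Without BDS 21, BDS 25 and BDS 55 its log2 fold change was -0.13, and without control 44 it was -0.27. Il7r, an interleukin-7 receptor chain, had 4682 ± 370 in BDS and 5102 ± 424 in controls, and Cxcr4, a chemokine receptor near background, 30.5 ± 11.7 and 25.9 ± 6.3 (SD, n = 6 each). Without control 44 the median of the list was 0.10, beside -0.06 over all tested genes.

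Of 25 inflammatory genes that glucocorticoids repress, 23 were on the panel and 12 were present. Of these, 7 had log2 fold changes below 0 and 5 above, with a median of -0.24. Of the 12, 1 gene had an unadjusted p under 0.05, beside 12.3% of all tested genes. This was Il6, with 22.99 ± 7.85 normalized counts in BDS and 15.0 ± 3.07 in controls (SD, n = 6 each), close to background (edgeR adjusted p = 0.27). Cxcl10, an interferon-induced chemokine, had 31.0 ± 15.6 and 51.2 ± 30.9, and Nos2, the inducible nitric oxide synthase, 24.7 ± 4.8 and 19.2 ± 5.2 (BDS and control, SD, n = 6 each). Both were near background, with Cxcl10 above it in 10 of 12 samples and Nos2 in 9. The summed normalized counts of the list were 8015 to 12988 in BDS samples, against 9014 to 12837 in 5 controls and 28511 in control 44, the library that was also high for Cdkn1a. Without control 44 the median of the list turned to 0.24, beside -0.06 over all tested genes. Of the 7 genes below 0, Ccl3, Ccl4 and Tnf, at log2 fold changes of -0.42, -0.69 and -0.25, turned to 0.62, 0.30 and 0.34 without it. The other 4 remained below 0, with Il1a at -0.09, Il1b at -0.23, Ccl2 at -0.09 and Cxcl10 at -0.44. Nfkbia, of the induced list, was at -0.28 with all samples and at 0.34 without control 44. The part of these genes in the Cdkn1a values was not tested. The summed NK cell markers were 201 to 292 in BDS, against 465 in control 44 and 203 to 274 in the other controls. The perforin gene Prf1 alone carried that sum, at 325 normalized counts in control 44, while Klrk1 was at its lowest control value there (37.3) and Klrd1 was below its control median of 91.1.

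Around Cdkn1a, 9 of 11 p53 and cell stress genes on the panel were present, 7 with log2 fold changes below 0 and 2 above, with a median of -0.07 that was 0.02 with TMM. The 2 above were Trp53, encoding p53, with 598 ± 108 normalized counts in BDS and 521 ± 31 in controls, and Bax, with 271 ± 37 and 233 ± 38 (SD, n = 6 each; edgeR adjusted p = 0.44 for both). Without BDS 21, BDS 25 and BDS 55 their log2 fold changes were 0.05 and 0.08, against 0.20 and 0.22 with all samples. Mapkapk2, a stress kinase, was at 721 ± 101 in BDS and 813 ± 106 in controls.

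Around Bcl6, 13 of 16 partners and targets on the panel were present, 11 with log2 fold changes below 0 and 2 above, at a median of -0.23 that was -0.13 with TMM. Over all tested genes, 236 of 357 were below 0. Cd80, a co-stimulatory ligand, had 756 ± 139 normalized counts in BDS and 902 ± 99 in controls (SD, n = 6 each; edgeR adjusted p = 0.395). Around Cebpb, all 8 C/EBP partners and targets on the panel were present, 3 with log2 fold changes below 0 and 5 above, with a median of 0.02. That median was 0.12 with TMM, 0.14 without control 44 and -0.04 without BDS 21, BDS 25 and BDS 55. Over all tested genes the median in these settings was -0.01, -0.06 and -0.09. Runx1, a transcription factor of myeloid cells, was at 3081 ± 793 in BDS and 3811 ± 132 in controls (SD, n = 6 each; edgeR adjusted p = 0.38), at -0.31 on the log2 scale and -0.03 without those 3 samples. None of the listed genes passed the adjusted threshold.

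**Figure D5:**
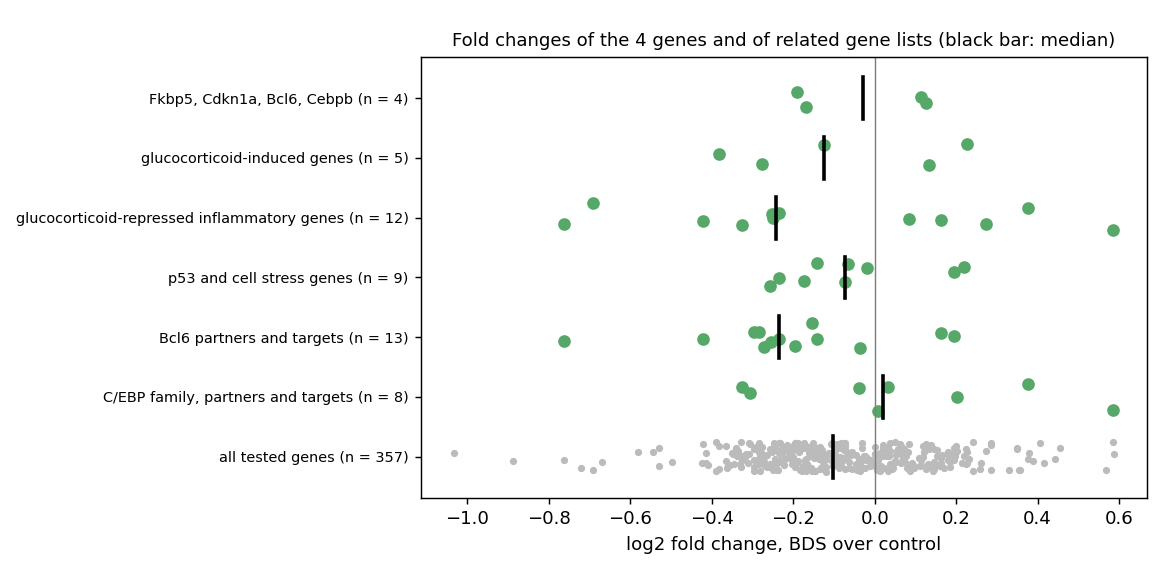
Log2 fold change of BDS over control (horizontal axis) for the 4 genes, the present genes of 5 lists and all 357 tested genes, with medians as black bars. The medians of the lists lie between -0.24 and 0.02, beside -0.10 for all tested genes.

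The authors' deposited table gives the same directions on its own normalized values. In the authors' deposited table, Fkbp5 averages 2271 in BDS and 2074 in controls, which is 1.10-fold (unadjusted p = 0.1614), and Cebpb 274 and 248, also 1.10-fold (unadjusted p = 0.4563). Cdkn1a averages 1340 in BDS and 1488 in controls in the authors' deposited table, 0.90-fold (unadjusted p = 0.7059), and Bcl6 862 and 973, 0.89-fold (unadjusted p = 0.2698).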

How the data were processed

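Per the labels' protocols, cDNA from 2 ng of RNA went through 5 PCR rounds before hybridization to the nCounter mouse immune panel. The raw counts deposited by the authors cover 573 probes (545 endogenous genes, 14 housekeeping genes, 8 negative and 6 positive controls), and are not normalized. A second deposited table holds values rounded by the authors after scaling to positive-control probes and housekeeping genes, treated here as scores. Per the file headers it also gives a linear ratio of the group means (fold), an unadjusted p-value and the percent of samples in which a gene exceeded background. Barcode-reading software: not given in the sources used here.

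Each sample was scaled by the geometric mean count of 6 housekeeping genes (Sdha, Tbp, Alas1, Polr1b, Oaz1 and Gapdh), relative to that of all samples. The design text speaks of 5 housekeeping genes but names these 6. The factors behind the deposited normalized values matched 5 genes without Sdha (spread over samples 0.0132%) better than all 6 (1.65%), so the scaling here differs from the authors', and the 5 genes were an alternative. Genes were tested where at least 40% of samples (5 of 12) lay more than 2 SD above the mean of the negative-control probes. BDS and control samples were compared with edgeR 4.0.16 in R 4.3.3 (quasi-likelihood test, no covariates), with Benjamini-Hochberg adjustment over all 357 genes and a threshold of 0.05. Alternatives used TMM, other housekeeping sets, DESeq2 1.42.0 without independent filtering, limma 3.58.1, other filters, background subtraction, a covariate, an exact permutation test and left-out samples. Counting errors cover counting only, since amplified molecules are not independent. The test was checked on simulated counts of these 357 genes with 200 changed, of which 74.8% of 1.5-fold and 95.4% of 2-fold changes were called. The simulation changed most genes and used the scaling factors that had made its counts. These shares therefore do not give the power for any of the 4 genes in the real data.

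The 4 genes and the lists were chosen with earlier results of these data known. The rule for named genes took the 3 present genes of smallest unadjusted p in each list, the 3 closest profiles of each of the 4 genes, housekeeping genes and cell type markers. Ccl3, Tnf, Il1a, Il1b and Ccl2 fall outside it and were named after their values were seen. Some genes that the rule takes are not reported here. Promoter windows and genes' names come from RefSeq (GRCm38.p6), and the files name no genome build.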

Additional observations from a re-analysis of the deposited data

Results flagged for a closer look

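Among 66 groups of 6 samples examined for the named genes and the ratios, 6 held 1 sample past a set limit of distance from the other 5. The usual chance rate of about 1 in 20 cannot be applied to these groups. Many of the genes were chosen from these same values, and they share samples. Ccl4, Nfkbia and H2-K1 were named for profiles close to that of Cdkn1a, which was itself highest in control 44. Control 44 was high in Ccl4 (4102 normalized counts), Nfkbia (11954), H2-K1 (6252) and Bax (306). Its Cdkn1a value of 2984, also the highest of the controls, did not meet this limit, because control 13 lay between it and the rest. The other flags fell on genes near background, Il6 at 38.5 normalized counts in BDS 25 and Tnfsf18 at 41.1 in BDS 21. These samples had the smallest housekeeping factors, 0.649 and 0.609. Before scaling neither value stood out. Raw Il6 was 25 in BDS 25, against 25 in BDS 43 and 26 in control 27. Raw Tnfsf18 was 25 in BDS 21, against 25 in control 54 and 30 in BDS 43.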

How the results depend on the processing

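Of the 28 alternatives for each gene, Fkbp5 kept its sign in all 28, Cdkn1a and Cebpb in 26 and Bcl6 in 25, and none made any of the 4 pass the adjusted threshold (edgeR, DESeq2, limma or exact permutation, lowest adjusted p 0.33, for Bcl6). The alternatives reuse the same samples, so these counts do not measure stability. For Cdkn1a the 2 that reversed were those without control 44, at 0.20 (0.28 with TMM). With all samples kept, Cdkn1a was at -0.05 with TMM, -0.04 with limma and -0.02 with limma on the deposited values. It was at -0.33 with the Rpl19 to Polr2a covariate. Without BDS 21, BDS 25 and BDS 55 Bcl6 was at 0.075 (0.15 with TMM) and Cebpb at -0.14 (-0.055 with TMM), and with the Rpl19 to Polr2a covariate Bcl6 was at 0.064. The 2 settings that combine TMM with left-out samples, and the list medians without control 44, were chosen after seeing the data. With 1 sample left out at a time the log2 fold changes were 0.07 to 0.15 for Fkbp5, -0.28 to 0.20 for Cdkn1a, -0.28 to -0.10 for Bcl6 and 0.05 to 0.25 for Cebpb. Without BDS 21, BDS 25 and BDS 55 the correlation of Bcl6 turned to 0.25 with Fkbp5 and to 0.52 with Cebpb, against -0.19 and -0.32 with all samples.

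The count of genes past the adjusted threshold, 0, was 0 to 4 with 1 sample left out, the 4 without BDS 7. The 44 genes at an unadjusted p under 0.05 became 26 to 96 with 1 sample left out, 96 of them without BDS 7 and 26 without BDS 25 or BDS 55. They became 27 with DESeq2's own size factors, 20 without BDS 21, BDS 25 and BDS 55, 20 with the Rpl19 to Polr2a covariate, 9 with TMM without those 3 samples and 28 with TMM without control 44. With TMM 14 were lower and 18 higher, in place of 41 and 3. The causes were not tested. No paired analysis was possible because the groups share no replicate numbers. With 6 samples a group, the 95% intervals above show what differences the data leave room for.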
